A study of Mus musculus with 9 samples.

Results

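The SOX genes encode transcription factors that share an HMG box, the DNA-binding domain first described in the sex-determining factor SRY. The members followed here as possible partners of OCT4 or as lineage factors were Sox2, Sox3, Sox4, Sox11, Sox12, Sox13, Sox15, Sox17, Sox18 and Sox21, which are 10 of 40213 gene symbols in the count tables. They were chosen by symbol, with earlier results of these data known. All 10 were among the 16562 genes with enough counts to be tested, although Sox17 reached the low-count limit of 0.426 CPM (counts scaled to a common library total after TMM normalization) only in the 3 J1 libraries, and Sox18 in 2 J1 libraries and 1 EWS-OCT4 library. The study sequenced total RNA of mouse embryonic stem (ES) cells kept in ES medium with LIF, a cytokine that sustains self-renewal. Its control was the ES line J1 (3 libraries). The labels call the other cells Niwa stable lines. OCT4 cells (3 libraries) are named for OCT4, and EWS-OCT4 cells (3 libraries) for a fusion that joins EWS, an RNA-binding protein, to OCT4. Both stable lines received 1 µg/ml doxycycline to lower their endogenous OCT4, and whether J1 also received it is not given in the labels. The labels give no promoter for the introduced OCT4 or EWS-OCT4, and leave unsaid whether libraries 1 to 3 come from separate cultures or separately derived clones. Hence the p-values cover no more than the spread among the 3 libraries of a group, possibly technical, and a difference between clones or host lines cannot be told apart from the construct.

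SOX proteins bind a short DNA element in the minor groove and bend it, and most act on a gene only together with a partner that binds beside them. In ES cells SOX2 pairs with OCT4 on a composite SOX and OCT element found at many pluripotency genes, among them Sox2 and Pou5f1 themselves. Outside the pluripotent state, SOX3, SOX1 and SOX2 mark neural progenitors, SOX21 is a repressor within the same SOXB group, SOX4, SOX11 and SOX12 (the SOXC group) act in neuronal and mesenchymal differentiation, SOX17 and SOX18 (with SOX7, the SOXF group) act in endoderm and endothelium, and SOX13 belongs to the coiled-coil SOXD group.

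The coding sequence of the HMG box shows how closely the bases of each member resemble those of Sox2, not how alike the protein surfaces are. Codon 57 of the box is shown because the residue it encodes is known to bear on the way SOX proteins dimerise with OCT4 on DNA, with lysine in SOX2 and glutamate in SOX17. Each line gives 33 bases of the GENCODE M21 transcript in lower case, 5′ to 3′, with codon 57 in capitals, counted from the first of the 79 codons of the box, which was placed by the conserved start of the domain.
Sox2: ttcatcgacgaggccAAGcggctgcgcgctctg
Sox3: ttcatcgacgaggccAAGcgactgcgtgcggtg
Sox21: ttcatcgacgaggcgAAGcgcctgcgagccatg
Sox15: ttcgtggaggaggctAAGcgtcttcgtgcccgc
Sox4: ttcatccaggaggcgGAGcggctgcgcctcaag
Sox11: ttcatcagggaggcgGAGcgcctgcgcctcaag
Sox12: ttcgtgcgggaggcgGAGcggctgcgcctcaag
Sox17: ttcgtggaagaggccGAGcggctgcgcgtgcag
Sox18: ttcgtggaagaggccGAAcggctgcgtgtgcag
Sox13: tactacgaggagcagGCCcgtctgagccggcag
Sox2, Sox3, Sox15 and Sox21 carry AAG, a lysine codon. Sox4, Sox11, Sox12 and Sox17 carry GAG and Sox18 carries GAA, both glutamate codons, and Sox13 carries GCC, an alanine codon. Over the 237 bases of the box, Sox3 and Sox21 were each 87.8% identical to Sox2 and Sox15 was 73.0% identical, against 62.0% to 68.8% for the other 6. Sox4 and Sox11 were 89.5% identical to each other, and Sox17 and Sox18 82.3%.

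Library totals ran from 21149358 to 24786305 counts, and all 8 markers of undifferentiated ES cells were at or above 1 CPM on average in each line. Their sum was 4472 to 4901 CPM in J1, 2952 to 3022 in OCT4 cells and 3240 to 3338 in EWS-OCT4 cells. Against J1, 1 was higher and 6 lower in OCT4 cells, and 1 higher and 4 lower in EWS-OCT4 cells. Over all tested genes, 67.0% and 61.9% were called in these comparisons, which the marker counts below also use. The marker higher in both was Nanog, at 261 CPM on average in J1, 509 in OCT4 cells and 481 in EWS-OCT4 cells. Zfp42 averaged 1424, 429 and 758 CPM in that order, and Dppa5a was not called in either. Counts of Pou5f1, the gene for OCT4, ran from 522 to 638 CPM in J1, from 162 to 167 in OCT4 cells and from 25.6 to 29.2 in EWS-OCT4 cells. The sources used here do not say whether reads of the introduced sequence were counted under this symbol. Summed trophoblast markers (8 genes) stood at 143 to 172 CPM in J1, 535 to 574 in OCT4 cells and 233 to 250 in EWS-OCT4 cells. Tfap2c, at 90.9 CPM on average, made up most of the J1 sum. Of the 8 genes, 7 were higher and 0 lower in OCT4 versus J1, and 6 higher and 1 lower (Esx1) in EWS-OCT4 versus J1. No J1 library reached the low-count limit for Cdx2 or Gata3, both among those higher. Summed endoderm markers (11 genes) stood at 386 to 420 CPM in J1, 752 to 794 in OCT4 cells and 509 to 527 in EWS-OCT4 cells, sums made up mostly of Lama1, Col4a1 and Sparc. Of the 10 endoderm markers tested, 3 were higher and 7 lower in EWS-OCT4 versus J1 (median log2 fold change -1.40), and 3 were higher and 4 lower in OCT4 versus J1. Summed neural markers (12 genes, Dcx at 0 in all libraries) stood at 112 to 142 CPM in J1, 153 to 162 in OCT4 cells and 121 to 124 in EWS-OCT4 cells. Mesendoderm markers (6 genes) summed to 6.22 to 6.48, 16.6 to 17.2 and 6.62 to 8.92 CPM in that order, and fibroblast markers (8 genes) to 81.6 to 101, 58.6 to 65.1 and 30.2 to 33.4 CPM. These sums mix directions. In OCT4 versus J1, Eomes and Gsc were higher but T and Mixl1 lower, and Pdgfrb and Twist1 higher but Col1a1 and Thy1 lower. T was below the low-count limit in all OCT4 libraries, and Gsc in all J1 libraries. Of the 6 neural markers tested, 4 were higher and 2 lower (Tubb3 and Pax6) in OCT4 versus J1, and 3 higher and 3 lower in EWS-OCT4 versus J1. The endoderm list holds Sox7, the neural list Sox1 and Pax6, and the ES list Sox2 and Pou5f1. The part of these markers in the SOX results was not tested, and in bulk libraries fewer cells of a type and less RNA per cell cannot be told apart. Libraries within J1 were not alike for these genes, since J1 replicate 2 was the highest J1 library for 8 of the 10 genes and J1 replicate 1 the lowest for 8.

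Sox2 was by far the most abundant member in every line, and the order of the others changed with the line. Compared per transcript length, Sox2 stood at 348 ± 43.4 CPM per kb in J1 (SD, n = 3), 280 ± 14.5 in OCT4 cells and 282 ± 17.2 in EWS-OCT4 cells. The next member was Sox15 in J1 (16.6 ± 1.98 CPM per kb) and in OCT4 cells (15.01 ± 0.886), but Sox21 in EWS-OCT4 cells (20.1 ± 0.806). In J1 the order went on with Sox12, Sox4, Sox13, Sox11, Sox21, Sox3, Sox18 and Sox17, and the ranges of 3 libraries overlapped between Sox12 and Sox4, Sox4 and Sox13, Sox3 and Sox18, and Sox18 and Sox17. In OCT4 cells Sox12, Sox13, Sox4, Sox21 and Sox11 followed Sox15, with overlap between Sox12 and Sox13. In EWS-OCT4 cells Sox15, Sox12, Sox13, Sox11 and Sox4 followed Sox21, with overlap between Sox11 and Sox4. Sox3, Sox18 and Sox17 were the lowest in both stable lines. Of the summed per-length level of the 10 genes, Sox2 made up 88.7% ± 0.201 in J1, 84.3% ± 0.168 in OCT4 cells and 82.7% ± 0.812 in EWS-OCT4 cells (SD, n = 3). The 4 genes with the lysine codon together made up 93.2% ± 0.453, 90.7% ± 0.196 and 93.6% ± 0.147.

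**Figure D1:**
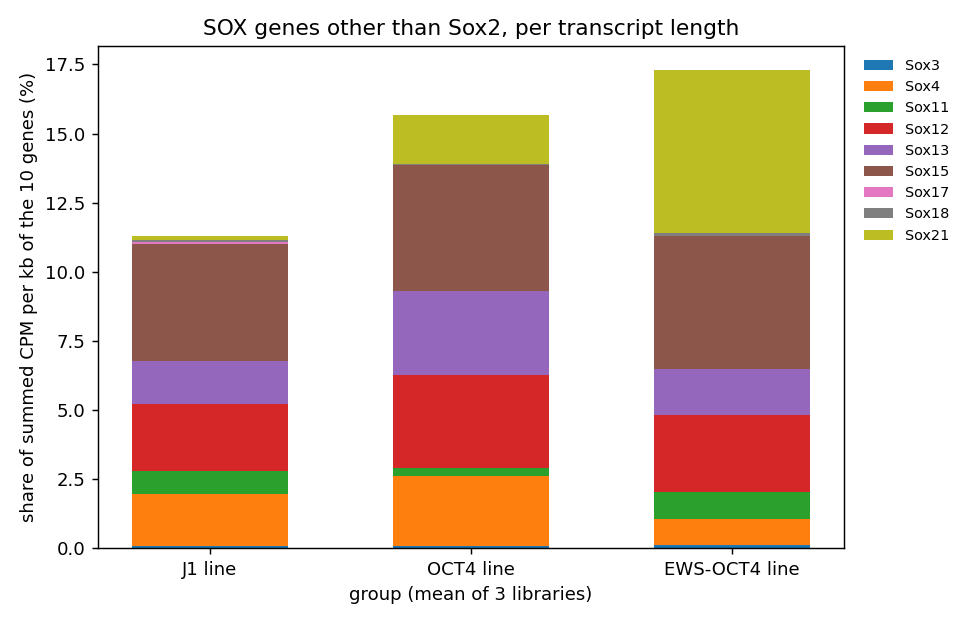
Stacked bars give the mean share (%) of each SOX gene other than Sox2 in the summed CPM per kb of the 10 genes, for the 3 libraries of each line. The Sox21 segment is 0.167% in J1, 1.81% in OCT4 cells and 5.92% in EWS-OCT4 cells, while the Sox15 segment is between 4.25% and 4.83% in all lines.

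Sox2, the usual DNA partner of OCT4 in ES cells, fell in both stable lines, to 80.3% of the J1 mean in OCT4 cells and 81.0% in EWS-OCT4 cells, and did not pass the test between them. The J1 libraries had 629, 807 and 711 CPM (replicates 1 to 3), OCT4 cells 541, 593 and 591, and EWS-OCT4 cells 542, 611 and 587. All 6 stable-line libraries were below the lowest J1 library, and the stable lines' ranges overlapped. The log2 fold change against J1 was -0.32 (SE 0.0851) in OCT4 cells and -0.30 (SE 0.0851) in EWS-OCT4 cells, with adjusted p = 0.00327 and 0.00497 (edgeR quasi-likelihood test, Benjamini-Hochberg adjustment over all 16562 genes). Between the stable lines it was 0.01 (SE 0.0851; adjusted p = 0.911). Pou5f1 stood 6.14-fold lower in EWS-OCT4 cells than in OCT4 cells, beside a Sox2 difference smaller than the spread between libraries. Without J1 replicate 2, the highest library, the Sox2 difference from J1 was -0.22 in OCT4 cells and -0.21 in EWS-OCT4 cells, still past the threshold. Over all 18 alternatives (edgeR, DESeq2 or limma-voom), the adjusted p against J1 reached 0.0225 in OCT4 cells and 0.0428 in EWS-OCT4 cells. Both comparisons use the same J1 libraries.

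Sox3, an X-linked gene of neural progenitors and the closest kin of Sox2 in the list with Sox21, was low everywhere. It had 11, 20 and 13 counts in the J1 libraries, 9, 15 and 13 in the OCT4 libraries and 15, 25 and 21 in the EWS-OCT4 libraries. These were 0.616 ± 0.178, 0.546 ± 0.131 and 0.895 ± 0.181 CPM (SD, n = 3). The EWS-OCT4 libraries did not overlap with the OCT4 libraries, but the difference (log2 fold change 0.71, SE 0.349) did not pass the edgeR test (adjusted p = 0.081), nor did those against J1 (0.54 and -0.17, adjusted p = 0.178 and 0.692). X-linked genes of at least 5 CPM had a median log2 fold change of -0.45 in EWS-OCT4 versus OCT4 and 0.63 in OCT4 versus J1, where the fitted Sox3 values, which did not pass the test, had the opposite sign. In EWS-OCT4 versus J1 the median was 0.17, of the same sign as Sox3.

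Sox21 had the widest range of line means among the 10 genes, rising from J1 to OCT4 cells and further to EWS-OCT4 cells. SOX21 is a repressor whose HMG box resembles that of SOX2, and it is known to counter SOX2-type activators in neural progenitors. The J1 libraries had 2.21, 2.31 and 2.87 CPM (55, 58 and 61 counts), the OCT4 libraries 21.8, 25.2 and 21.1, and the EWS-OCT4 libraries 78.8, 77.5 and 73.0. No library of a line overlapped with another line. Sox21 was 9.27-fold higher in OCT4 cells than in J1 (log2 fold change 3.21, SE 0.117) and 31.2-fold higher in EWS-OCT4 cells (4.96, SE 0.112). Between the stable lines it was 3.36-fold higher with EWS-OCT4 (1.75, SE 0.0853). The adjusted p-values were 1.5e-13, 8.6e-16 and 9.2e-12 by the edgeR quasi-likelihood test. Per length, Sox21 reached 6.73% to 7.88% of the Sox2 level in the EWS-OCT4 libraries, against 1.93% to 2.30% in the OCT4 libraries and 0.155% to 0.218% in J1. Genes of chromosome 14, where Sox21 lies, had median log2 fold changes of -0.14, -0.06 and 0.07 in the same 3 comparisons.

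Sox15, a SOX gene of ES cells whose protein can also bind with OCT4, did not pass the test in any comparison. It had 13.6, 16.3 and 13.1 CPM in J1, 13.2, 12.1 and 13.5 in OCT4 cells and 13.9, 13.5 and 14.99 in EWS-OCT4 cells. The EWS-OCT4 libraries lay just above the OCT4 libraries, and J1 overlapped with both. The fitted log2 fold changes were -0.15 (SE 0.103) and -0.02 (SE 0.102) against J1 and 0.13 (SE 0.103) between the stable lines, with adjusted p = 0.209, 0.88 and 0.279 (edgeR). Genes of chromosome 11, where Sox15 lies, had a median of -0.49 in OCT4 cells and -0.46 in EWS-OCT4 cells against J1, against -0.03 and 0.04 for all autosomal genes. Against J1 the Sox15 values were thus nearer to 0 than the median of its chromosome, while between the stable lines that median was 0.02.

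**Figure D2:**
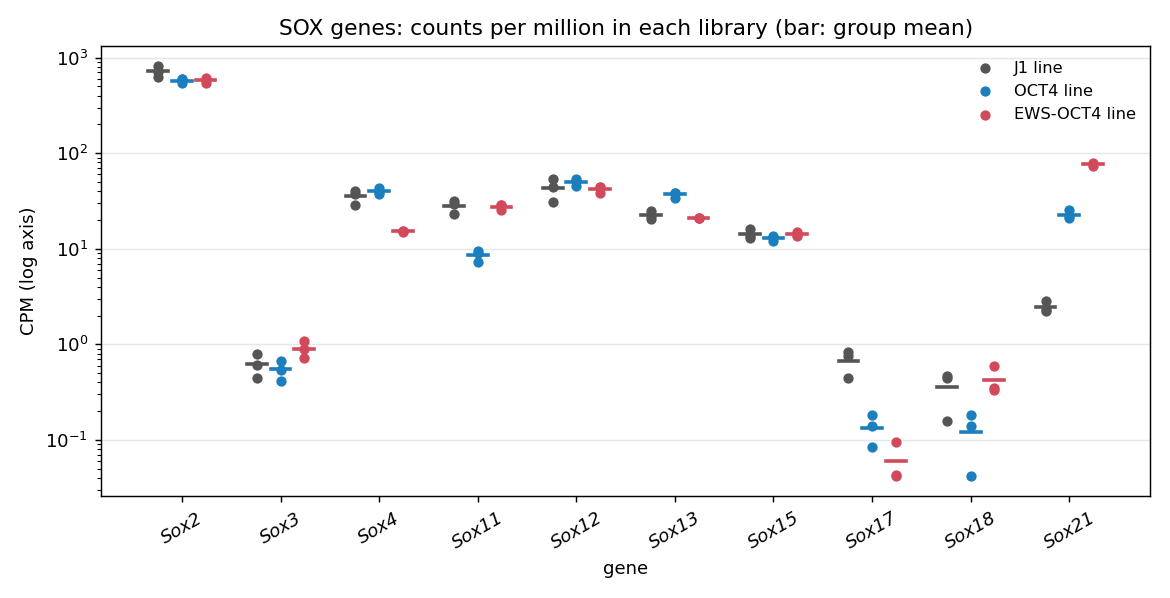
Points give CPM on a log axis for each of the 9 libraries and bars the mean of 3 libraries, for the 10 SOX genes in the J1, OCT4 and EWS-OCT4 cells. Sox21 rises in steps from J1 (2.21 to 2.87 CPM) to EWS-OCT4 cells (73.0 to 78.8), Sox11 is low only in OCT4 cells of these 3, and Sox4 only in EWS-OCT4 cells.

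The SOXC genes differed from one another, with Sox4 lower in EWS-OCT4 cells, Sox11 lower in OCT4 cells and Sox12 not called. Sox4, which acts in progenitors of many tissues, had 28.7, 40.0 and 37.2 CPM in J1, 37.8, 42.7 and 39.5 in OCT4 cells and 15.5, 15.1 and 15.2 in EWS-OCT4 cells. Every EWS-OCT4 library lay below all libraries of the other lines, which overlapped with each other. The log2 fold change was -1.39 (SE 0.107) against OCT4 cells and -1.21 (SE 0.107) against J1, with adjusted p = 3.68e-09 and 3.42e-08 (edgeR). OCT4 cells against J1 did not pass (0.18, SE 0.1; adjusted p = 0.118), but passed without J1 replicate 2 (0.28, adjusted p = 0.0132).

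Sox11, an activator of neuronal genes with a box 89.5% identical to that of Sox4, was low in a different line. It had 23.0, 31.8 and 29.5 CPM in J1, 7.33, 8.94 and 9.57 in OCT4 cells and 28.6, 28.6 and 25.6 in EWS-OCT4 cells. The OCT4 libraries lay below all others, while J1 and EWS-OCT4 cells overlapped. Sox11 was 3.25-fold lower in OCT4 cells than in J1 (log2 fold change -1.70, SE 0.125; adjusted p = 1.85e-09) and 3.19-fold higher in EWS-OCT4 cells than in OCT4 cells (1.68, SE 0.125; adjusted p = 3.05e-09). Between EWS-OCT4 cells and J1 the difference was -0.03 (SE 0.112; adjusted p = 0.85). Genes of chromosome 12, where Sox11 lies, had medians of -0.24, -0.04 and -0.29 in these 3 comparisons.

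Sox12, the third SOXC gene, had 31.1, 53.1 and 44.0 CPM in J1, 44.8, 50.8 and 53.8 in OCT4 cells and 38.4, 44.3 and 43.7 in EWS-OCT4 cells. The OCT4 libraries were above the EWS-OCT4 libraries without overlap, and the J1 libraries overlapped with both. No comparison passed the edgeR test, with a log2 fold change of -0.24 (SE 0.161; adjusted p = 0.21) between the stable lines and 0.22 (SE 0.160; adjusted p = 0.243) and -0.02 (SE 0.162; adjusted p = 0.926) for the OCT4 and EWS-OCT4 lines against J1. The difference between the stable lines passed when only their 6 libraries were fitted (-0.22, adjusted p = 0.00642) or without J1 replicate 1 (-0.24, adjusted p = 0.0143). OCT4 cells against J1 passed without J1 replicate 2 (0.41, adjusted p = 0.0182). Summed per length, the SOXC genes stood at 20.3 ± 4.26 CPM per kb in J1, 20.6 ± 1.51 in OCT4 cells and 15.96 ± 0.635 in EWS-OCT4 cells (SD, n = 3).

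Sox13, a SOXD protein without a transactivation domain of its own, was higher in OCT4 cells only, among these 3 lines. It had 20.3, 24.6 and 22.3 CPM in J1, 34.3, 38.6 and 38.4 in OCT4 cells and 20.9, 20.8 and 20.9 in EWS-OCT4 cells. The OCT4 libraries lay above all others, and the EWS-OCT4 libraries inside the range of J1. Sox13 rose 1.66-fold in OCT4 cells against J1 (log2 fold change 0.73, SE 0.0851; adjusted p = 6.44e-07) and was 1.78-fold lower in EWS-OCT4 cells than in OCT4 cells (-0.83, SE 0.0859; adjusted p = 1.66e-07). Between EWS-OCT4 cells and J1 it differed by -0.10 (SE 0.0877; adjusted p = 0.329).

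The SOXF genes Sox17 and Sox18 were at or below 1 CPM in all 9 libraries. Sox17, a factor of definitive and primitive endoderm, had 11, 21 and 16 counts in the J1 libraries, 3, 4 and 2 in the OCT4 libraries and 2, 1 and 1 in the EWS-OCT4 libraries. All J1 libraries were above all stable-line libraries, and the stable lines overlapped. The log2 fold change was -2.29 (SE 0.501; adjusted p = 0.000586) in OCT4 cells and -3.40 (SE 0.586; adjusted p = 7.67e-05) in EWS-OCT4 cells against J1. Since Sox17 was tested only because of its J1 counts, these tests were bound towards a decrease. The stable lines did not pass between them (-1.10, SE 0.795; adjusted p = 0.232). Sox18, a factor of blood and lymph vessel endothelium, had 11, 4 and 10 counts in J1, 3, 4 and 1 in OCT4 cells and 7, 8 and 14 in EWS-OCT4 cells. It passed as lower in OCT4 cells than in J1 (-1.53, SE 0.629; adjusted p = 0.0399), although these groups overlapped, and as higher in EWS-OCT4 cells than in OCT4 cells (1.80, SE 0.612; adjusted p = 0.0153). No OCT4 library reached the low-count limit for Sox18, which was tested only through 2 J1 libraries and 1 EWS-OCT4 library, so both calls were bound in direction. The first of these calls was lost in 8 of 16 alternatives, with adjusted p up to 0.158, among them without J1 replicate 1 or 3 and without OCT4 replicate 1 or 3. The second did not pass when EWS-OCT4 replicate 3 (adjusted p = 0.0805) or OCT4 replicate 3 (adjusted p = 0.0756) was left out. Of the 8 endothelial markers, Emcn had no count in any library, and their summed level was 163 to 170 CPM in J1, 140 to 141 in OCT4 cells and 149 to 158 in EWS-OCT4 cells. Pecam1 made up most of that sum in J1, at 127 CPM on average, and in OCT4 versus J1 3 of the 7 endothelial markers tested were higher (Kdr, Cdh5 and Tek) and 2 lower.

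Most genes were called in each comparison, so the counts of called SOX genes show nothing particular to the family. In EWS-OCT4 versus OCT4, 3 of 10 were higher and 2 lower, while 66.5% of all tested genes were called (31.9% higher and 34.6% lower). In EWS-OCT4 versus J1, 1 was higher and 3 lower, against 61.9% called overall (30.3% higher and 31.6% lower). In OCT4 versus J1, 2 were higher and 4 lower, against 67.0% called overall (34.3% higher and 32.7% lower). The 4 lower include Sox17 and Sox18, whose direction was bound by the low-count filter, as was that of Sox17 in EWS-OCT4 versus J1 and of Sox18 in EWS-OCT4 versus OCT4. Without J1 replicate 2, 8 of the 10 were called in OCT4 versus J1, 4 in each direction. Of the 16941 genes tested in that fit, 11148 were called in this comparison. The median log2 fold changes of the 10 genes were 0.07, -0.02 and -0.16 in that order, beside -0.04, 0.003 and 0.01 over all tested genes. Libraries of the compared groups did not overlap for 8, 4 and 5 of the 10 genes, against 72.8%, 65.7% and 68.4% of all tested genes. Called genes with at least a 2-fold change numbered 24.3%, 20.5% and 26.5% of all tested genes in these comparisons. Among the 10 genes they were Sox4, Sox11, Sox18 and Sox21 in EWS-OCT4 versus OCT4, and Sox4, Sox17 and Sox21 in EWS-OCT4 versus J1. In OCT4 versus J1 they were Sox11, Sox17, Sox18 and Sox21. The Sox17 and Sox18 calls among them were those bound in direction.

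**Figure D3:**
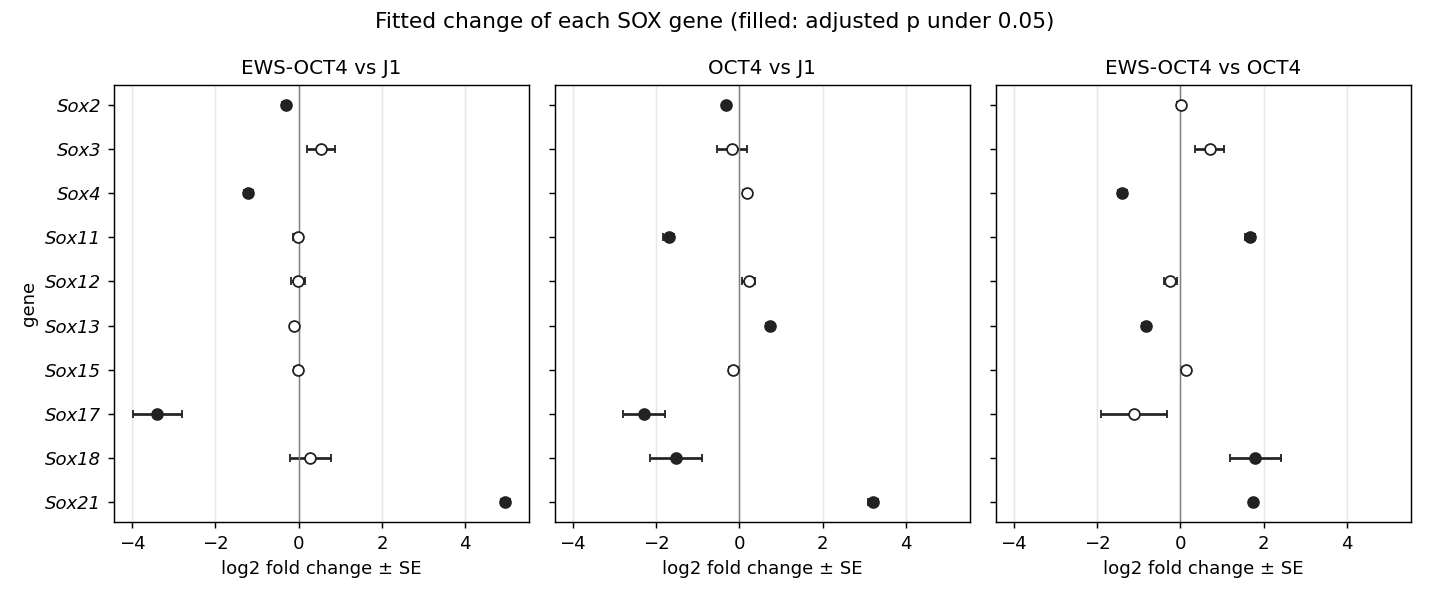
Points give the fitted log2 fold change and its standard error for each of the 10 SOX genes in 3 comparisons of 3 against 3 libraries, with filled points where the adjusted p is under 0.05. Sox21 is filled to the right of 0 in all 3 panels, with values of 4.96, 3.21 and 1.75, and Sox15 is open in all 3.

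The list of other family genes held 10, of which 8 were tested. Sry had no count in any library and Sox14 a single count in all. In EWS-OCT4 versus OCT4, 1 of the 8 was higher and 3 lower, in EWS-OCT4 versus J1 3 were higher and 4 lower, and in OCT4 versus J1 2 were higher and 4 lower. The shares called over all tested genes were 66.5%, 61.9% and 67.0% in these comparisons. The EWS-OCT4 versus J1 count fell from 7 to 4 called genes without EWS-OCT4 replicate 1. In that fit 9480 of all 17066 tested genes were called. Sox7, the SOXF gene that marks primitive endoderm and vessels, showed another order than its kin Sox17. It stood at 2.36 to 2.98 CPM in EWS-OCT4 cells, 0.042 to 0.277 in OCT4 cells and 0.188 to 0.803 in J1, and was 13.7-fold higher in EWS-OCT4 than in OCT4 (log2 fold change 3.77, SE 0.456; adjusted p = 1.26e-06, edgeR) and 4.40-fold higher than in J1 (2.14, SE 0.369; adjusted p = 8.19e-05). In OCT4 cells it was lower than in J1 by the same edgeR test (-1.64, SE 0.554; adjusted p = 0.0148), with overlapping libraries, a call lost without J1 replicate 2 (adjusted p = 0.0538) or OCT4 replicate 3 (adjusted p = 0.0754). No OCT4 library reached the low-count limit for Sox7. Its call in EWS-OCT4 versus OCT4, counted above, was thus bound in direction. Since the EWS-OCT4 libraries let Sox7 be tested, its OCT4 versus J1 call, also counted above, was not bound by the filter. That call rests on 1 to 6 counts in the OCT4 libraries and 4 to 20 in J1.

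Sox1, a neural progenitor gene with a box close to that of Sox2, was higher than in J1 in both stable lines and more so in OCT4 cells. It had 0.642 to 1.033 CPM in J1, 4.34 to 5.51 in OCT4 cells and 1.77 to 2.42 in EWS-OCT4 cells, with log2 fold changes of 2.59 (SE 0.223) and 1.29 (SE 0.244) against J1 and -1.30 (SE 0.197) between the stable lines, and edgeR adjusted p = 1.33e-08, 0.000189 and 1.67e-05. Sox9, which acts in cartilage and other progenitors, followed the same order at 0.434 CPM in J1, 2.11 in OCT4 cells and 0.954 in EWS-OCT4 cells on average. Its edgeR call in EWS-OCT4 versus J1 did not hold with EWS-OCT4 replicate 1 (adjusted p = 0.0607) or J1 replicate 1 (adjusted p = 0.0824) left out. Sox10, a neural crest factor, fell in both stable lines, from 2.45 to 3.43 CPM in J1 to 1.06 to 1.17 in OCT4 cells and 0.260 to 0.577 in EWS-OCT4 cells. Sox5 and Sox30 fell in both stable lines against J1, with Sox5 at 1.47 ± 0.298 CPM in J1, 0.649 ± 0.131 in OCT4 cells and 0.746 ± 0.196 in EWS-OCT4 cells, and Sox30 at 1.253 ± 0.160, 0.649 ± 0.252 and 0.342 ± 0.117 (SD, n = 3). By the edgeR test, the Sox5 call in EWS-OCT4 versus J1 did not hold with EWS-OCT4 replicate 1 left out (adjusted p = 0.0586), and the Sox30 call in OCT4 versus J1 without J1 replicate 2 (adjusted p = 0.0646) or OCT4 replicate 2 (adjusted p = 0.109). No EWS-OCT4 library reached the low-count limit for Sox30, so its call in EWS-OCT4 versus J1 was bound towards a decrease. Sox8 passed only in EWS-OCT4 versus J1 (-0.62, SE 0.253; edgeR adjusted p = 0.0411), a call lost without any 1 of the 3 EWS-OCT4 libraries or without J1 replicate 1 or 3 (adjusted p up to 0.133), though not without J1 replicate 2. It was also lost with the replicate block (adjusted p = 0.0559), with DESeq2 (adjusted p = 0.0945) and with no low-count filter (adjusted p = 0.108). These values are low, and 3 counts correspond to between 0.12 and 0.144 CPM in these libraries.

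**Figure D4:**
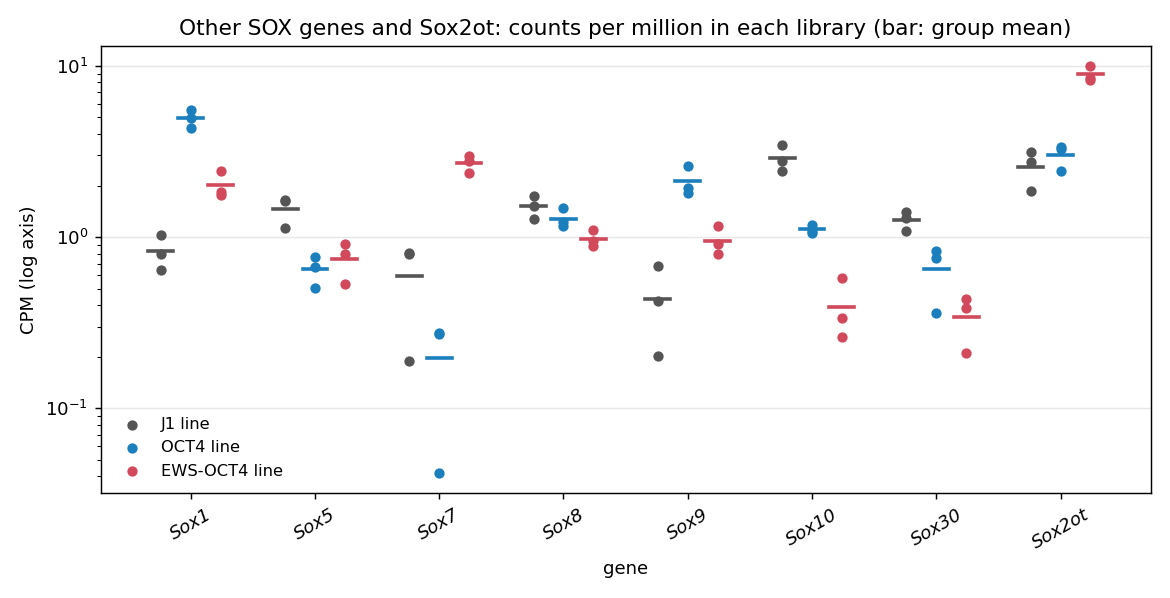
Points give CPM on a log axis for each of the 9 libraries and bars the mean of 3 libraries, for the SOX genes outside the 10 that reached 1 CPM in any line, and for Sox2ot. Sox7 and Sox2ot are highest in EWS-OCT4 cells, Sox1 and Sox9 in OCT4 cells, and Sox10 in J1.

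Sox2ot, a long noncoding RNA whose gene spans Sox2 on the same strand, differed in pattern from Sox2. It stood at 1.85 to 3.15 CPM in J1, 2.43 to 3.34 in OCT4 cells and 8.31 to 9.95 in EWS-OCT4 cells. It was 2.96-fold higher in EWS-OCT4 than in OCT4 (log2 fold change 1.57, SE 0.18; adjusted p = 6.38e-07) and 3.47-fold higher than in J1 (1.80, SE 0.183; adjusted p = 1.93e-07) by the edgeR test, while OCT4 cells against J1 did not pass (0.23, SE 0.201; adjusted p = 0.326). How the counting assigned reads where the Sox2 and Sox2ot genes overlap is not given in the sources used here.

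Genes whose proteins bind DNA beside SOX factors were counted next. Of 8 listed, 6 were tested, and 2 were higher and 2 lower in EWS-OCT4 versus OCT4, 3 higher and 1 lower in EWS-OCT4 versus J1, and 2 higher and 4 lower in OCT4 versus J1, against 66.5%, 61.9% and 67.0% of all tested genes called. Pax6, the eye and neural factor that pairs with SOX2 in the lens, had 10.1 to 10.9 CPM in EWS-OCT4 cells against 0.316 to 0.588 in OCT4 cells and 1.85 to 2.23 in J1, which is 22.6-fold above OCT4 cells (edgeR adjusted p = 3.46e-12) and 5.16-fold above J1 (adjusted p = 1.02e-09). Pou3f1, a POU factor of the epiblast and of neural cells, had 8.17 to 8.82 CPM in EWS-OCT4 cells, 2.54 to 3.16 in OCT4 cells and 3.89 to 4.31 in J1. Pou3f3, a neural POU factor, was instead highest in OCT4 cells, at 2.20 ± 0.355 CPM against 0.853 ± 0.198 in EWS-OCT4 cells and 0.648 ± 0.113 in J1 (SD, n = 3). Pou2f1, which encodes the widely expressed OCT1, stood at 173 ± 5.45 CPM in EWS-OCT4 cells and 165 ± 7.09 in OCT4 cells, above the 128 ± 20.8 of J1, and both differences passed (edgeR adjusted p = 0.000535 and 0.0018). Pou3f4 passed as lower in OCT4 cells than in J1 (log2 fold change -1.89, SE 0.71; edgeR adjusted p = 0.0257), with 9 counts over the OCT4 libraries and 36 over J1. That call was lost without J1 replicate 3 or without OCT4 replicate 1 or 2 (edgeR adjusted p up to 0.108). Only J1 libraries reached the low-count limit for Pou3f4, so this call, counted above among the 4 lower, was bound towards a decrease.

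Of 12 genes with known OCT4 and SOX2 enhancers, a list that holds Sox2 and Pou5f1, 5 were higher and 3 lower in EWS-OCT4 versus OCT4, 4 higher and 6 lower in EWS-OCT4 versus J1, and 3 higher and 8 lower in OCT4 versus J1. Over all tested genes, 66.5%, 61.9% and 67.0% were called in these comparisons. Their median log2 fold changes were 0.02, -0.05 and -0.27. Utf1, a chromatin factor of ES cells, had 88.4 ± 3.99 CPM in OCT4 cells against 215 ± 8.30 in EWS-OCT4 cells and 203 ± 24.4 in J1 (SD, n = 3). Lefty1, a secreted inhibitor of Nodal, ran from 30.6 to 35.1 CPM in J1, from 0.42 to 0.677 in OCT4 cells and from 12.2 to 13.8 in EWS-OCT4 cells. Gdf3, a Nodal-related growth factor, was highest in EWS-OCT4 cells at 38.0 to 42.0 CPM, with 9.16 to 9.65 in OCT4 cells and 10.7 to 12.9 in J1. Spp1, which encodes osteopontin, was higher in both stable lines (376 ± 20.5 and 360 ± 7.46 CPM in the OCT4 and EWS-OCT4 lines) than in J1 (130 ± 10.7), and Zfp42 lower in both (429 ± 19.2 and 758 ± 27.4 against 1424 ± 114).

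The tested genes whose log2 CPM followed Sox21 most closely over the 9 libraries, among 9501 named genes of at least 10 CPM in some line, were Glo1 (Pearson r = 0.999), Bmal2 (0.998) and Etv1 (0.996). Etv1, an ETS factor, averaged 12.7 CPM in J1, 41.5 in OCT4 cells and 75.4 in EWS-OCT4 cells, and Glo1, a glyoxalase, 74.9, 154 and 220. For Sox2 the closest were Cox10 (0.978), Fbf1 (0.973) and Zfp646 (0.973), and for Sox17 they were Chd5 (0.987), Nfatc4 (0.985) and Adat1 (0.983). With 3 lines of 3 libraries, such values describe mainly the order of 3 line means, and for Sox17 they rest on 1 to 21 counts a library.

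Proximal promoters were matched for 7 of the 10 genes in RefSeq's GRCm38.p6 table (300 bases, 250 before the start and 50 after it). The SOX core CATTGT, searched on both strands, was in none of the 7, against 12.6% of all 32851 promoters. The POU core ATGCAA was in those of Sox2, Sox4 and Sox12, against 10.7% of all, and the full octamer ATGCAAAT, which contains it, only in that of Sox12 among the 7, against 1.74% of all. The joined SOX and OCT element (CATTGT, 1 further base and ATGCAAA) was in none of the 7 and in 2 promoters in all. The matches describe these windows, not binding.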

How the data were processed

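For each of the 9 libraries the authors deposited a table of raw, whole-number counts, with 1 row a gene symbol. Total RNA was made into libraries with the CORALL V2 kit, per the labels' protocols. Fastp, STAR, Salmon, GATK and the build GRCm39 are listed in the submitters' processing notes, with no role or order. The annotation, strand and use of molecular identifiers were not given in the sources used here, so counts of overlapping genes are uncertain.

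Sample titles gave the group and the replicate number. Genes were kept by filterByExpr (minimum count 10, minimum total 15). A single model of 3 groups over all 9 libraries was fitted with edgeR 4.0.16 (R 4.3.3), with TMM factors of 0.958 to 1.033, robust glmQLFit, glmQLFTest and Benjamini-Hochberg adjustment over 16562 genes at 0.05. Standard errors were derived from the F statistic, as the absolute log2 fold change over its root. CPM uses TMM-scaled totals. Per-length levels divide CPM by the longest GENCODE M21 (GRCm38) coding transcript with the HMG box, which need not be the transcript used in these cells. Chromosomes came from RefSeq (16063 of 16562 tested symbols matched). Likeness used log2 CPM with a prior count of 2. Differences between libraries of 1 group exceeded counting error (chi-square per degree of freedom 3.21 to 29.2). The fit was tried on simulated data with few genes changed, equally up and down, for EWS-OCT4 versus OCT4 only. Such data do not show how the scaling behaves where most genes are called, as here.

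The members and lists were chosen with earlier results of these data known. Genes named were the 10 members, other SOX genes of at least 1 CPM, Sox2ot, up to 4 genes with the largest called change per comparison from the partner and target lists, and the 3 genes most like Sox2, Sox21 and Sox17. The alternatives were scaling by RLE or by the upper quartile, omitting the low-count filter, requiring 5 CPM in 3 libraries, DESeq2 1.42.0, limma-voom (limma 3.58.1), fitting just the 6 libraries of a comparison, a block for the replicate number, scaling without 38 genes (mitochondrial genes and Gm26917), and leaving out each library.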

Additional observations from a re-analysis of the deposited data

Results flagged for a closer look

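The change from J1 differed between the stable lines for the genes below, by the edgeR test of EWS-OCT4 versus OCT4, whose log2 fold change is the change of EWS-OCT4 cells from J1 minus that of OCT4 cells. Among the 10 SOX genes it was 1.75 for Sox21, 1.68 for Sox11, 1.80 for Sox18, -1.39 for Sox4 and -0.83 for Sox13. No OCT4 library reached the low-count limit for Sox18, and its edgeR call was lost when EWS-OCT4 replicate 3 (adjusted p = 0.0805) or OCT4 replicate 3 (adjusted p = 0.0756) was left out. Among the other genes of the family it was 3.77 for Sox7 (bound in direction, with no OCT4 library at the low-count limit), -1.30 for Sox1, -1.16 for Sox9 and -1.51 for Sox10, and it was 1.57 for Sox2ot. Among partners and enhancer targets it was 4.50 for Pax6, 1.64 for Pou3f1, -1.36 for Pou3f3, -2.62 for Pou5f1, 4.62 for Lefty1, 2.09 for Gdf3, 1.28 for Utf1 and 0.82 for Zfp42. Of all tested genes, 66.5% passed this test.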

How the results depend on the processing

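Of 528 values of the 10 SOX genes under the alternatives, 512 kept their direction where called and their side of the threshold, 10 lost a call (all of Sox18), 6 gained one (Sox12 and Sox4) and 0 reversed. With each library left out in turn, the number of the 10 genes called was 4 to 6 in EWS-OCT4 versus OCT4, 4 in EWS-OCT4 versus J1 and 5 to 8 in OCT4 versus J1. Over all 16925 to 17066 genes tested in these fits, 10218 to 11665, 9310 to 10273 and 10541 to 11214 were called. With the replicate number as a block, the number of the 10 genes called was 6, 4 and 6, beside 5, 4 and 6 without it. Sox12 then passed between the stable lines (-0.24, adjusted p = 0.0307) and in OCT4 versus J1 (0.24, adjusted p = 0.0311), and Sox18 no longer passed in OCT4 versus J1 (adjusted p = 0.0526). Same-numbered libraries deviated together at most weakly (correlations of -3.2e-05 to 0.0737, beside -0.0644 to 0.0334 for differently numbered libraries). Not every library correlated best with its own number. Over all genes the calls without the block were 11012, 10249 and 11098, and 11246, 10534 and 11356 with it. Of the other 8 tested SOX genes, 4 to 7 were called in EWS-OCT4 versus J1 with a library left out, beside 9310 to 10273 of all genes. The alternatives for genes outside the 10 were chosen after seeing the data, and at least 5 CPM in 3 libraries left none of those 8 to test. Depth limits Sox3, Sox17 and Sox18, with at most 25 counts in any library.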
